A study of Homo sapiens with 52 samples.

Results

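The plasminogen activator system was followed here through 5 genes, namely the activators PLAU and PLAT, the receptor PLAUR and the inhibitors SERPINE2 and SERPINB2. They were chosen by gene symbol from the 59408 genes of the deposited tables, and all 5 were among the 15479 genes that passed a filter on low levels. PLAU encodes urokinase (uPA) and PLAT encodes tissue-type plasminogen activator (tPA), serine proteases that cut plasminogen into plasmin. Plasmin dissolves fibrin, degrades matrix proteins and activates pro-forms of matrix metalloproteinases and growth factors. PLAUR encodes the uPA receptor, which is anchored in the plasma membrane and holds uPA at the cell surface. SERPINB2 (plasminogen activator inhibitor type 2) and SERPINE2 (protease nexin, also a thrombin inhibitor) are serpins, inhibitors that trap their protease in a covalent complex. Several of these proteins are known as secreted or shed factors of senescent fibroblasts, which is why the system is of interest in a comparison of ways to induce senescence. All values below are mRNA levels and say nothing directly of protein or of enzyme activity.

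The cells were WI-38, 1 line of normal human embryonic lung fibroblasts with a limited lifespan. Senescence was induced over 24 h by SDS at 0.009%, which as a detergent injures the cell surface, by KCl at 75 mM, used to drive calcium influx, or by doxorubicin (DXR) at 250 nM, a drug that breaks DNA. The agent was then washed off. The treated cells are named PMD-Sen, Ca2+-Sen and DDR-Sen, respectively, on every day of sampling. They were collected at the end of treatment (day 0), daily up to day 4, and then on days 6, 8 and 16. The names do not mean that the cells of every day were already senescent. In the paper's pathway analysis, PMD-Sen showed an active senescence pathway only from day 3 on. Replicatively senescent cells (RS) came from passaging until division stopped, and young untreated cells served as the 1 control of all comparisons, so time in culture without a treatment was not compared. The labels give 2 libraries in each of the 26 groups and call the untreated cells wild type.

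The deposited tables hold comparisons and no value of a single library. Each of the 25 tables lists per gene an average of the normalized counts of a condition and untreated cells, with the log2 fold change between them and its standard error (SE). From these, a level was computed for each gene in each group on 1 scale, in normalized counts. A gene was called where its Benjamini-Hochberg adjusted p-value, computed over all 15479 genes tested, was below 0.05. The p-values rest on 2 samples a group of 1 cell line, so differences between lines or donors are not covered. In units of M (mega) counted reads, the untreated libraries held 15.4 M and 18.8 M, the RS libraries 45.2 M and 58.0 M, and the treated libraries between 19.1 M and 53.5 M. All 10 fibroblast markers, among them COL1A1, PDGFRA and DCN, stood at 1435 or more in every group. Of 5 markers of white blood cells CD14 was the highest, at up to 256. The epithelial markers EPCAM, CDH1 and KRT5 reached at most 21.6, while KRT8 and KRT19 lay between 287 and 2678. Of 5 endothelial markers, CDH5 reached at most 1.86, KDR lay between 0.108 and 12.6, VWF between 28.4 and 90.8 and TEK between 1192 and 6852, and PECAM1 lay between 2.55 and 136, from 2.77 in untreated cells. The part of these markers in the results was not tested. In such bulk samples, fewer cells of a type and less RNA per cell cannot be told apart.

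Over the 125 pairs of member and condition, 41 were called higher than in untreated cells and 37 lower. Over all tested genes and the same 25 tables, 8.57% of the pairs were called higher and 9.9% lower. SERPINB2 was called higher in 20 conditions and lower in 0. PLAT was called higher in 11 and lower in 4. SERPINE2 was called higher in 7 and lower in 3. PLAUR was called higher in 2 and lower in 13, and PLAU higher in 1 and lower in 17. The receptor and uPA were thus mostly lower, and SERPINB2 was mostly higher.

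**Figure D1:**
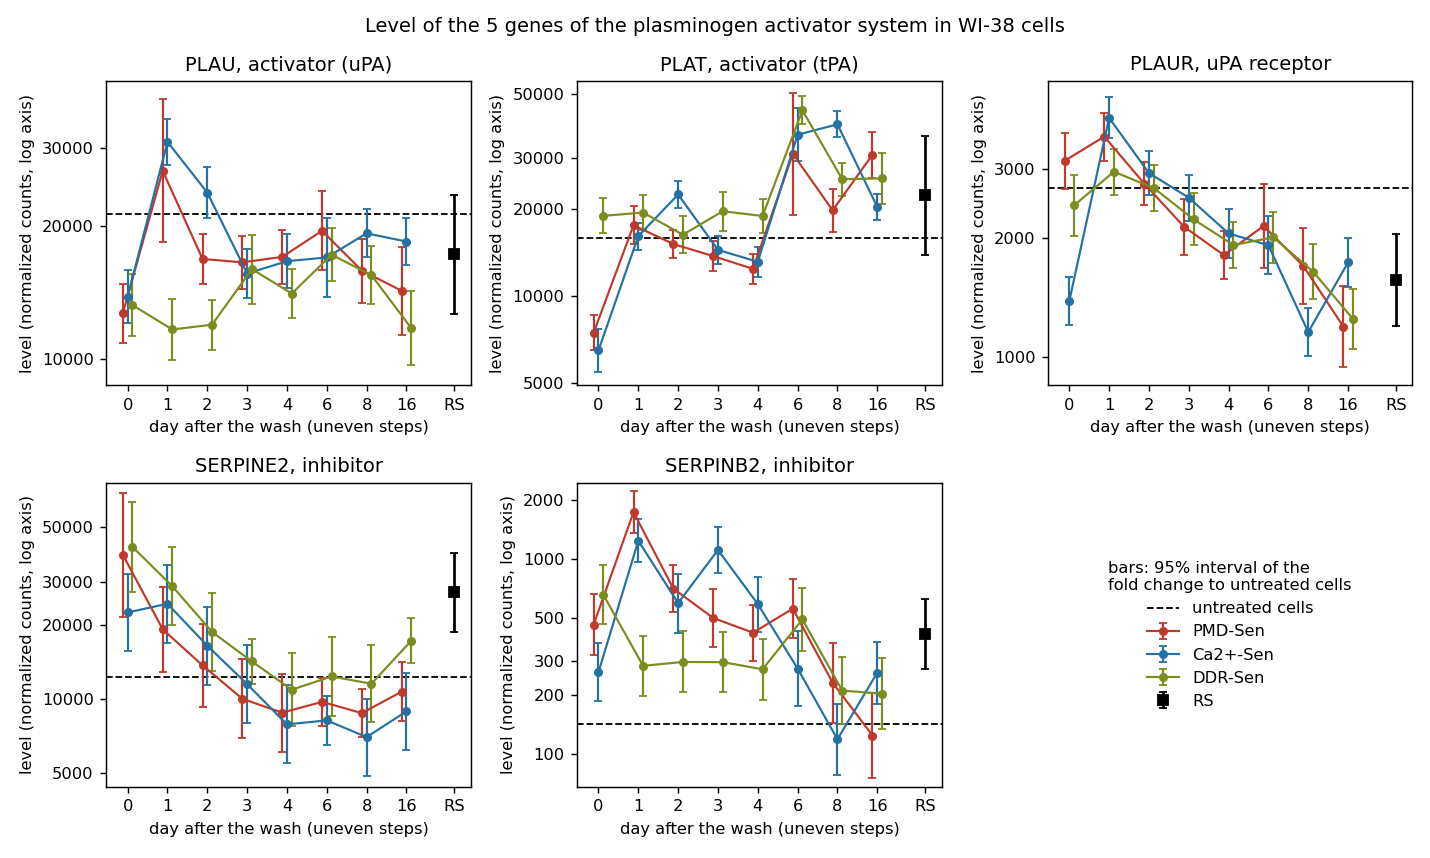
Level of each member in normalized counts (log axis) by day after the wash for PMD-Sen, Ca2+-Sen and DDR-Sen, with RS at the right and the untreated level as a dashed line; points are group values of 2 libraries and bars the 95% interval of the fold change to untreated cells. SERPINB2 reached 1742 on day 1 of PMD-Sen against 143 in untreated cells, PLAT reached 43870.3 on day 6 of DDR-Sen, and PLAUR declined to between 1156 and 1735 by the last 2 days of Ca2+-Sen.

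On day 0, 4 of the 5 members were called in PMD-Sen (38.3% of all tested genes were called in that table), 5 in Ca2+-Sen (48.5% of all) and 4 in DDR-Sen (26.7% of all). On day 1, 2 were called in PMD-Sen (18.8% of all), 4 in Ca2+-Sen (11.9%) and 4 in DDR-Sen (18.6%). On day 2, 2 were called in PMD-Sen (15.1%), 2 in Ca2+-Sen (4.12%) and 2 in DDR-Sen (12.1%). SERPINB2 and SERPINE2 were the members called higher at day 0 in all 3 inducers, and PLAU was the member called lower there in all 3. On day 3, 2 were called in PMD-Sen (10.9%), 2 in Ca2+-Sen (9.95%) and 2 in DDR-Sen (11% of all), in each case SERPINB2 higher and PLAU lower. On day 4, 4 were called in PMD-Sen (14.9%), 4 in Ca2+-Sen (11.5%) and 4 in DDR-Sen (17.6%). PLAUR was called lower in all 3 inducers on that day. On day 6, 1 was called in PMD-Sen (12.1%), 4 in Ca2+-Sen (9.68%) and 4 in DDR-Sen (23.4%). On day 8, 3 were called in PMD-Sen (11.2%), 3 in Ca2+-Sen (31.9%) and 3 in DDR-Sen (21%). PLAUR was again called lower in all 3. On day 16, 3 were called in PMD-Sen (20.3%), 3 in Ca2+-Sen (11.3%) and 4 in DDR-Sen (28.7%), and RS had 3 (22.3%). On day 16 PLAT was called higher and PLAUR lower after every inducer.

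PLAU (chromosome 10, 73909177 to 73917497 of GRCh38, plus strand, exons of 2950 bases in all) is the gene of uPA. In untreated cells its level was 21307. In PMD-Sen it was 12719 on day 0, 26693 on day 1, 16864 on day 2, 16571 on day 3, 17044 on day 4, 19532 on day 6, 15871 on day 8 and 14289 on day 16. In Ca2+-Sen it was 13860.2 on day 0, 31034 on day 1, 23829 on day 2, 15633 on day 3, 16670.5 on day 4, 16999 on day 6, 19272 on day 8 and 18466 on day 16. Both inducers gave their lowest value at the end of treatment and their highest 1 day later. In DDR-Sen the level was 13262 on day 0, 11679 on day 1, 11976 on day 2, 15997 on day 3, 14083 on day 4, 17239 on day 6, 15503 on day 8 and 11764 on day 16, all below the untreated level. In RS it was 17274.

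PLAU was called lower on 6 days of PMD-Sen, where 9.1% of all gene and day pairs were called lower, on 3 days of Ca2+-Sen (9.37% of all pairs) and on all 8 days of DDR-Sen (11.1% of all pairs). The changes were moderate, and no call reached a log2 fold change of 1 in size. The lowest was -0.87 ± 0.12 (SE) on day 1 of DDR-Sen (adjusted p = 1.00e-11). The 1 call in the other direction was day 1 of Ca2+-Sen, with a log2 fold change of 0.54 ± 0.09 (adjusted p = 8.44e-08). The day 1 value of PMD-Sen, 0.33 ± 0.27, was not called (adjusted p = 0.52), and its SE was the largest of the gene. RS was not called either (log2 fold change -0.30, 95% interval -0.75 to 0.14). The exons of PLAU share 31.1% of their bases with C10orf55 on the opposite strand. The strand setting of the counting is not given in the sources used here, so reads of the pair may not be told apart, and C10orf55 itself had a mean level of 36.2.

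PLAT (chromosome 8, 42175233 to 42207724, minus strand, exons of 6618 bases in all) is the gene of tPA, the activator that works best on fibrin-bound plasminogen. Its untreated level was 15844. In PMD-Sen it was 7474 on day 0, 17573 on day 1, 15135 on day 2, 13749 on day 3, 12418 on day 4, 31046 on day 6, 19787 on day 8 and 30826 on day 16. In Ca2+-Sen it was 6486 on day 0, 16114 on day 1, 22454 on day 2, 14448 on day 3, 13137 on day 4, 36129 on day 6, 39254 on day 8 and 20326 on day 16. Both series started low, at 0.472 and 0.409 times the untreated level, and ended above it. In DDR-Sen it was 18943 on day 0, 19439 on day 1, 16302 on day 2, 19649.8 on day 3, 18919 on day 4, 43870.3 on day 6, 25371 on day 8 and 25512 on day 16, never below the untreated level. In RS it was 22284.

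The day 0 log2 fold change of PLAT was -1.08 ± 0.10 (SE) in PMD-Sen (adjusted p = 1.23e-24) and -1.29 ± 0.13 in Ca2+-Sen (adjusted p = 2.79e-23), while in DDR-Sen it was 0.26 ± 0.10 (adjusted p = 0.045). On day 6 it was 1.19 ± 0.16 in Ca2+-Sen (adjusted p = 1.56e-11) and 1.47 ± 0.08 in DDR-Sen (adjusted p = 1.08e-68). The day 6 value of PMD-Sen, 0.97 ± 0.36, lay on the same side but missed the threshold (adjusted p = 0.052, and 0.044 by the authors' own adjusted p-value). The highest value of Ca2+-Sen came on day 8, at 1.31 ± 0.08 (adjusted p = 7.44e-63). On day 16 the log2 fold changes were 0.96 ± 0.13 in PMD-Sen, 0.36 ± 0.08 in Ca2+-Sen and 0.69 ± 0.15 in DDR-Sen, all called. The calls of DDR-Sen on days 0, 1 and 4 were small, at 0.26, 0.30 and 0.26, and were lost when every gene with a p-value was tested. RS, at 0.49 ± 0.35, was not called (adjusted p = 0.35).

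PLAUR (chromosome 19, 43646095 to 43670547, minus strand, exons of 4457 bases in all) had a level of 2682 in untreated cells. In PMD-Sen the level was 3136 on day 0, 3615 on day 1, 2749 on day 2, 2136 on day 3, 1811 on day 4, 2146 on day 6, 1697 on day 8 and 1193 on day 16. In Ca2+-Sen it was 1384 on day 0, 4032 on day 1, 2921 on day 2, 2531 on day 3, 2054 on day 4, 1917 on day 6, 1156 on day 8 and 1735 on day 16. In DDR-Sen it was 2419 on day 0, 2945 on day 1, 2678 on day 2, 2231 on day 3, 1920.2 on day 4, 2008 on day 6, 1645 on day 8 and 1248 on day 16. Each inducer had its highest value on day 1, and every value from day 3 on was below the untreated level. In RS the level was 1566.

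The receptor gene was called higher on day 1 of PMD-Sen (log2 fold change 0.43 ± 0.10, SE, adjusted p = 0.00036) and of Ca2+-Sen (0.59 ± 0.09, adjusted p = 1.69e-09), and the DDR-Sen value of that day, 0.13 ± 0.10, was not called. Day 0 of Ca2+-Sen was the 1 early call in the other direction (-0.96 ± 0.10, adjusted p = 2.30e-19). The late calls were all lower. They reached -1.17 ± 0.17 on day 16 of PMD-Sen (adjusted p = 9.94e-10), -1.21 ± 0.10 on day 8 of Ca2+-Sen (adjusted p = 4.16e-30) and -1.10 ± 0.13 on day 16 of DDR-Sen (adjusted p = 2.33e-16). RS was called lower too, at -0.78 ± 0.20 (adjusted p = 0.00090).

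SERPINB2 (chromosome 18, 63871692 to 63903890, plus strand, exons of 2748 bases in all) inhibits uPA and tPA and is largely kept inside the cell. Its level in untreated cells was 143. In PMD-Sen it was 461 on day 0, 1742 on day 1, 706 on day 2, 499 on day 3, 419 on day 4, 557 on day 6, 232 on day 8 and 124 on day 16. In Ca2+-Sen it was 263 on day 0, 1242 on day 1, 595 on day 2, 1114 on day 3, 588 on day 4, 274 on day 6, 119 on day 8 and 261 on day 16. Both inducers thus gave their highest value on day 1, which was 12.2-fold over untreated cells in PMD-Sen and 8.71-fold in Ca2+-Sen. In Ca2+-Sen the value of day 3 was nearly as high, at 7.81-fold. In DDR-Sen the level was 658 on day 0, 283 on day 1, 297 on day 2, 296 on day 3, 272 on day 4, 491 on day 6, 212 on day 8 and 204 on day 16, with its highest value already at the end of treatment. In RS it was 412, 2.89-fold over untreated cells.

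The largest change of any member was that of SERPINB2 on day 1 of PMD-Sen, a log2 fold change of 3.61 ± 0.19 (SE, adjusted p = 2.86e-81). Day 1 of Ca2+-Sen gave 3.12 ± 0.19 (adjusted p = 2.66e-58) and day 3 gave 2.97 ± 0.20 (adjusted p = 9.21e-48), and day 0 of DDR-Sen gave 2.21 ± 0.26 (adjusted p = 3.27e-16). RS gave 1.53 ± 0.30 (adjusted p = 9.12e-06). SERPINB2 was called higher on 6 days of PMD-Sen, where 8.61% of all gene and day pairs were called higher, on 7 days of Ca2+-Sen (7.98% of all pairs) and on 6 days of DDR-Sen (8.79% of all pairs). RS had 2 members called higher and 1 lower, where 11.2% of all tested genes were called higher and 11% lower. The conditions not called were days 8 and 16 of PMD-Sen, day 8 of Ca2+-Sen and days 8 and 16 of DDR-Sen, with log2 fold changes from -0.26 to 0.69. The call on day 6 of Ca2+-Sen (0.94 ± 0.33, adjusted p = 0.045) was lost when every gene with a p-value was tested. In GENCODE, SERPINB2 shares 19.9% of its exon bases with SERPINB10 on the same strand, which had a mean level of 1.17.

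SERPINE2 (chromosome 2, 223975112 to 224039319, minus strand, exons of 8891 bases in all) had an untreated level of 12324. In PMD-Sen it was 38542 on day 0, 19222 on day 1, 13718 on day 2, 10037 on day 3, 8813 on day 4, 9752 on day 6, 8779 on day 8 and 10726 on day 16. In Ca2+-Sen it was 22497 on day 0, 24395 on day 1, 16472 on day 2, 11507 on day 3, 7903 on day 4, 8199 on day 6, 7016 on day 8 and 8925 on day 16. In DDR-Sen it was 41523 on day 0, 28746 on day 1, 18732 on day 2, 14227 on day 3, 10925 on day 4, 12365 on day 6, 11551 on day 8 and 17260.3 on day 16. The highest values lay at day 0 or 1 and those from day 4 to day 8 lay near or below the untreated level. In RS the level was 27147, 2.20-fold over untreated cells.

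The day 0 log2 fold changes of SERPINE2 were 1.64 ± 0.43 (SE) in PMD-Sen (adjusted p = 0.00050), 0.87 ± 0.26 in Ca2+-Sen (adjusted p = 0.0027) and 1.75 ± 0.31 in DDR-Sen (adjusted p = 2.54e-07), and all 3 were called. Day 1 was called in Ca2+-Sen (0.98 ± 0.27) and DDR-Sen (1.22 ± 0.27). Day 16 of DDR-Sen (0.49 ± 0.15, adjusted p = 0.0082) and RS (1.14 ± 0.27, adjusted p = 0.00031) were called higher. Lower calls were found on day 8 of PMD-Sen (-0.49 ± 0.16), day 6 of Ca2+-Sen (-0.59 ± 0.17) and day 8 of Ca2+-Sen (-0.81 ± 0.26). The PMD-Sen call was lost when every gene with a p-value was tested. SERPINE2 was measured with an unusually wide error for its level. Its median SE over the 25 tables was 0.27, against 0.11 for the 5310 genes with a mean level of at least 1000, which put it at percentile 98.9 of them (median over tables). For SERPINB2 the median SE was 0.26, and for PLAU, PLAT and PLAUR it was 0.10, 0.10 and 0.11.

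With the SEs at hand, the order of the 26 levels could be resolved only in part. Each SE holds the error of the shared untreated libraries, which is counted more than once between treated groups. The comparison therefore resolves too few pairs and places too many groups within error of the highest. Neighbours in the order differed by more than the 95% interval of their combined SEs in 1 of 25 neighbouring pairs for PLAT and for SERPINB2, and in 0 of 25 for PLAU, PLAUR and SERPINE2. For PLAT that pair was day 4 and day 0 of PMD-Sen (12418 and 7474), and for SERPINB2 it was day 3 of Ca2+-Sen and day 2 of PMD-Sen (1114 and 706). The highest level was within error of 1 other group for SERPINB2 and PLAUR, in each case day 1 of PMD-Sen and day 1 of Ca2+-Sen. It was within error of 1 other group for PLAU, 3 for PLAT and 4 for SERPINE2. The highest treated level exceeded the lowest by 14.6-fold in SERPINB2, 6.76-fold in PLAT, 5.92-fold in SERPINE2, 3.49-fold in PLAUR and 2.66-fold in PLAU.

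**Figure D2:**
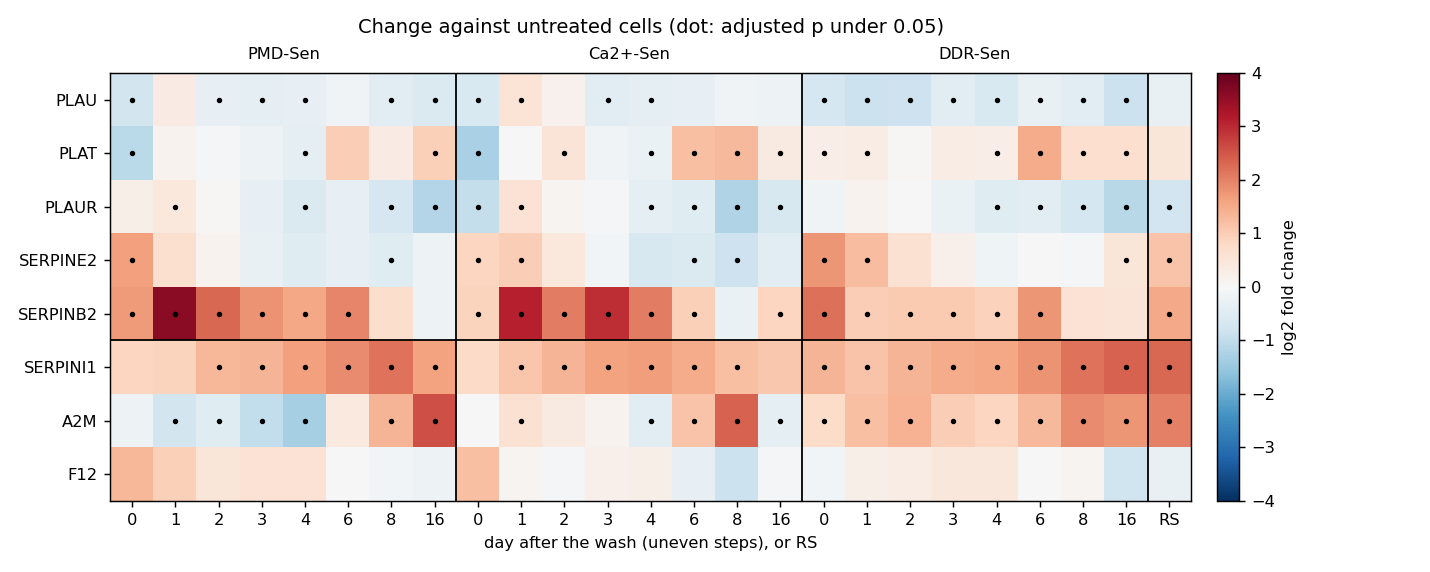
Log2 fold change to untreated cells (colour) of the 5 members above the line and of SERPINI1, A2M and F12 below it, in columns by day for the 3 inducers and RS; a dot marks an adjusted p-value under 0.05. SERPINB2 carries dots in 20 of the 25 columns, all higher, and SERPINI1 in 21, all higher.

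Whether the inducers differed on the same day was tested as the difference of their log2 fold changes over both SEs combined, in 24 contrasts a member. As the error of the shared untreated libraries is counted more than once, this test gives too few calls. Between PMD-Sen and DDR-Sen, 6.26% of all gene and day pairs were called, between PMD-Sen and Ca2+-Sen 6.16%, and between Ca2+-Sen and DDR-Sen 7.47%. These shares pool the 8 days. The share of a single day was not computed, so the calls of 1 day, such as day 0, cannot be set against them. Of 24 contrasts, PLAT was called in 10, PLAU in 6, SERPINB2 in 5, PLAUR in 4 and SERPINE2 in 1. With the error of the treated libraries alone, an alternative chosen after the data were seen, the counts were 13 for PLAT, 7 for PLAU, 14 for SERPINB2, 9 for PLAUR and 4 for SERPINE2. The share of all tested genes called with that error was not computed, so these counts cannot be set against the shares above.

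**Figure D3:**
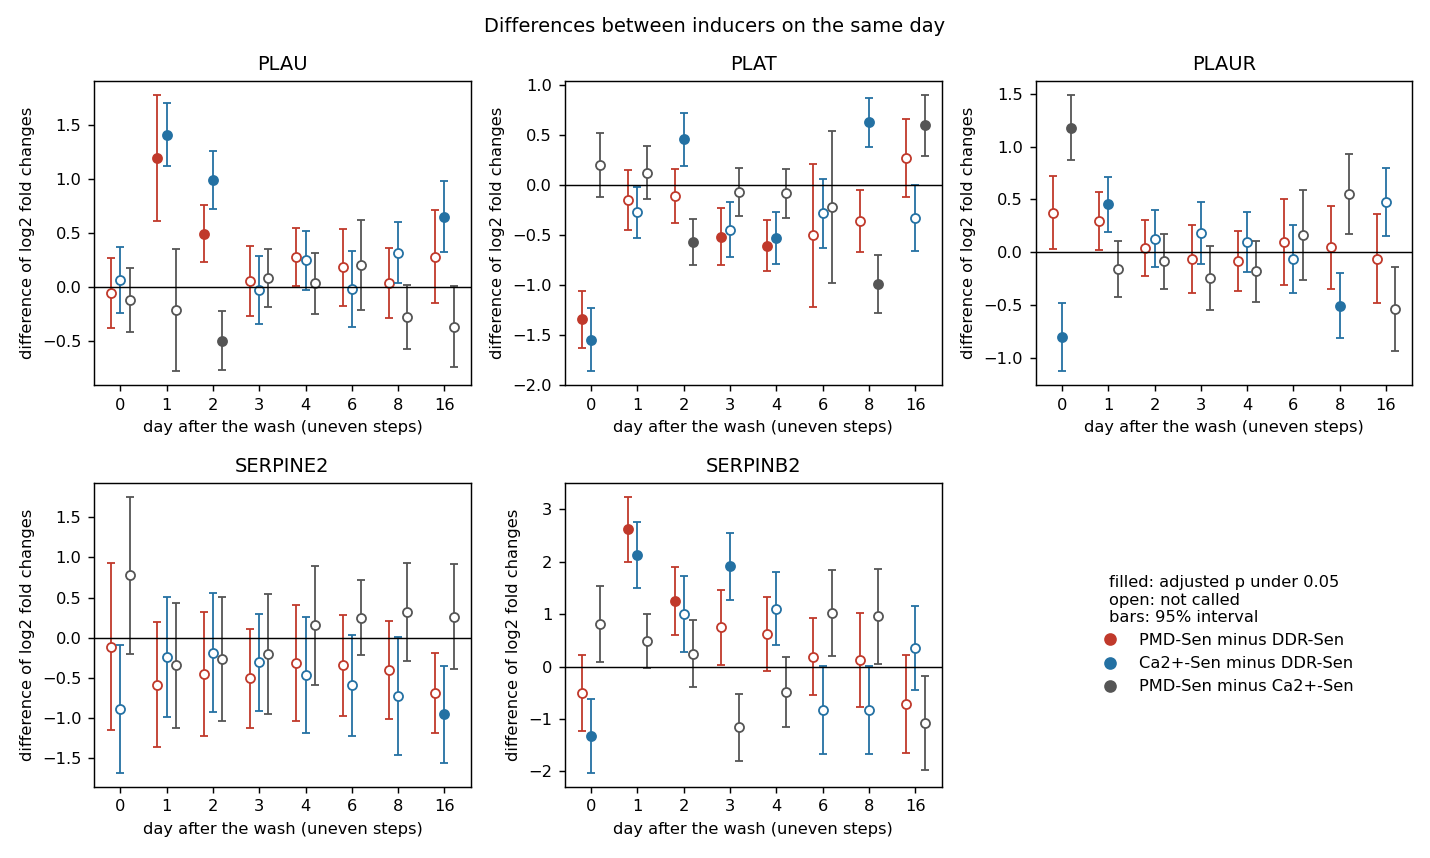
Difference of log2 fold changes between inducers on the same day for each member, with 95% intervals; filled points were called. The called PLAU differences from DDR-Sen lie on days 1, 2 and 16 and are all above 0, and the called SERPINB2 differences from DDR-Sen are below 0 on day 0 and above 0 on days 1 to 3.

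On day 1 SERPINB2 was higher in PMD-Sen than in DDR-Sen by a log2 difference of 2.62 ± 0.32 (SE, adjusted p = 1.64e-14) and in Ca2+-Sen by 2.13 ± 0.32 (adjusted p = 2.33e-09). PLAU went the same way, with 1.19 ± 0.30 for PMD-Sen (adjusted p = 0.0012) and 1.41 ± 0.15 for Ca2+-Sen (adjusted p = 4.37e-19). PLAUR was higher in Ca2+-Sen than in DDR-Sen by 0.45 ± 0.13 (adjusted p = 0.012), and the PMD-Sen difference was not called. At day 0 the activator PLAT was lower than in DDR-Sen in PMD-Sen by -1.34 ± 0.14 (adjusted p = 1.12e-18) and in Ca2+-Sen by -1.55 ± 0.16 (adjusted p = 9.08e-20), and these 2 did not pass the test against each other (0.20, 95% interval -0.11 to 0.52). On day 0 the receptor gene PLAUR was higher in PMD-Sen than in Ca2+-Sen by 1.18 ± 0.16 (adjusted p = 1.74e-12). SERPINB2 was lower in Ca2+-Sen than in DDR-Sen on that day, by -1.32 ± 0.36 (adjusted p = 0.0012). Late, PLAT was lower in PMD-Sen than in Ca2+-Sen on day 8 (-0.99 ± 0.15, adjusted p = 2.96e-08) and higher on day 16 (0.60 ± 0.16, adjusted p = 0.0081). The 1 called difference of SERPINE2 was between Ca2+-Sen and DDR-Sen on day 16, at -0.95 ± 0.31 (adjusted p = 0.036).

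The steps between sampled days were tested in the same way, 7 for each inducer. Over all tested genes, 4.62% of gene and step pairs were called in PMD-Sen, 6.74% in Ca2+-Sen and 0.881% in DDR-Sen. These shares pool the 7 steps. The share of a single step was not computed, so the calls of 1 step cannot be set against them. Of 21 steps, PLAT was called in 8, PLAUR in 4, SERPINB2 in 4, PLAU in 3 and SERPINE2 in 0. With the error of the treated libraries alone, SERPINB2 was called in 13 steps, PLAU in 6 and SERPINE2 in 1. PLAT and PLAUR gained called steps as well. The share of all tested genes called in steps with that error was not computed either.

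From day 0 to day 1 all 4 members other than SERPINE2 rose in Ca2+-Sen, by 2.24 ± 0.32 (log2, SE) for SERPINB2, 1.54 ± 0.13 for PLAUR, 1.31 ± 0.15 for PLAT and 1.16 ± 0.13 for PLAU. In PMD-Sen the same step was called for SERPINB2 (1.91 ± 0.33), PLAT (1.23 ± 0.15) and PLAU (1.07 ± 0.30). In DDR-Sen the 1 member called in that step was SERPINB2, in the other direction (-1.22 ± 0.36, adjusted p = 0.030). PLAT rose again between days 4 and 6, with a log2 difference of 1.46 ± 0.18 in Ca2+-Sen (adjusted p = 7.13e-12) and of 1.21 ± 0.13 in DDR-Sen (adjusted p = 2.71e-17). The same step of PMD-Sen, 1.32 ± 0.37, was not called (adjusted p = 0.20), but was called with the error of the treated libraries alone (SE 0.26, adjusted p = 0.00022). In DDR-Sen PLAT then fell by 0.79 ± 0.13 to day 8 (adjusted p = 7.62e-07), and in Ca2+-Sen it fell by 0.95 ± 0.11 from day 8 to day 16 (adjusted p = 1.38e-15). Over the last step PLAUR rose in Ca2+-Sen, by 0.59 ± 0.15 (adjusted p = 0.0021), after it had decreased by 0.73 ± 0.16 from day 6 to day 8 (adjusted p = 0.00073).

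Day 16 was also set against RS, the senescence of passaged cells. Between PMD-Sen and RS 0.659% of all tested genes were called, between Ca2+-Sen and RS 4.06%, and between DDR-Sen and RS 0.142%. SERPINE2 was lower than in RS in PMD-Sen (-1.34 ± 0.34, SE, adjusted p = 0.023) and in Ca2+-Sen (-1.61 ± 0.38, adjusted p = 0.0013). SERPINB2 was lower in PMD-Sen, by -1.73 ± 0.48 (adjusted p = 0.049), a call lost when libraries were scaled by the summed level of all genes. In DDR-Sen no member was called, and the 95% intervals of the log2 difference ran from -1.26 to -0.04 for SERPINE2, from -1.86 to -0.16 for SERPINB2, from -1.08 to -0.03 for PLAU, from -0.54 to 0.93 for PLAT and from -0.79 to 0.13 for PLAUR.

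Levels of different genes were compared only per kb of annotated exons. The length joins all annotated exons of a gene, 2950 bases for PLAU and 6618 for PLAT. Which transcripts these cells make was not examined, so values per kb and ratios between genes rest on this choice. With a shorter length for PLAT, its ratio to PLAU would be higher in every group. In untreated cells the level per kb was 7223 for PLAU, 2394 for PLAT, 1386 for SERPINE2, 602 for PLAUR and 51.9 for SERPINB2. SERPINB2 was the lowest of the 5 in 26 of 26 groups. The 12.2-fold peak of SERPINB2 therefore brought it to 634 per kb, against 811 per kb for PLAUR in the same group. PLAT stood at 0.33 of PLAU per kb in untreated cells. The ratio was 0.26 on day 0 of PMD-Sen and 0.21 on day 0 of Ca2+-Sen against 0.64 on day 0 of DDR-Sen. By day 16 it was 0.96 in PMD-Sen, 0.49 in Ca2+-Sen and 0.97 in DDR-Sen, and in RS 0.58. It was above 1 in 1 of 25 treated groups, day 6 of DDR-Sen (1.13).

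**Figure D4:**
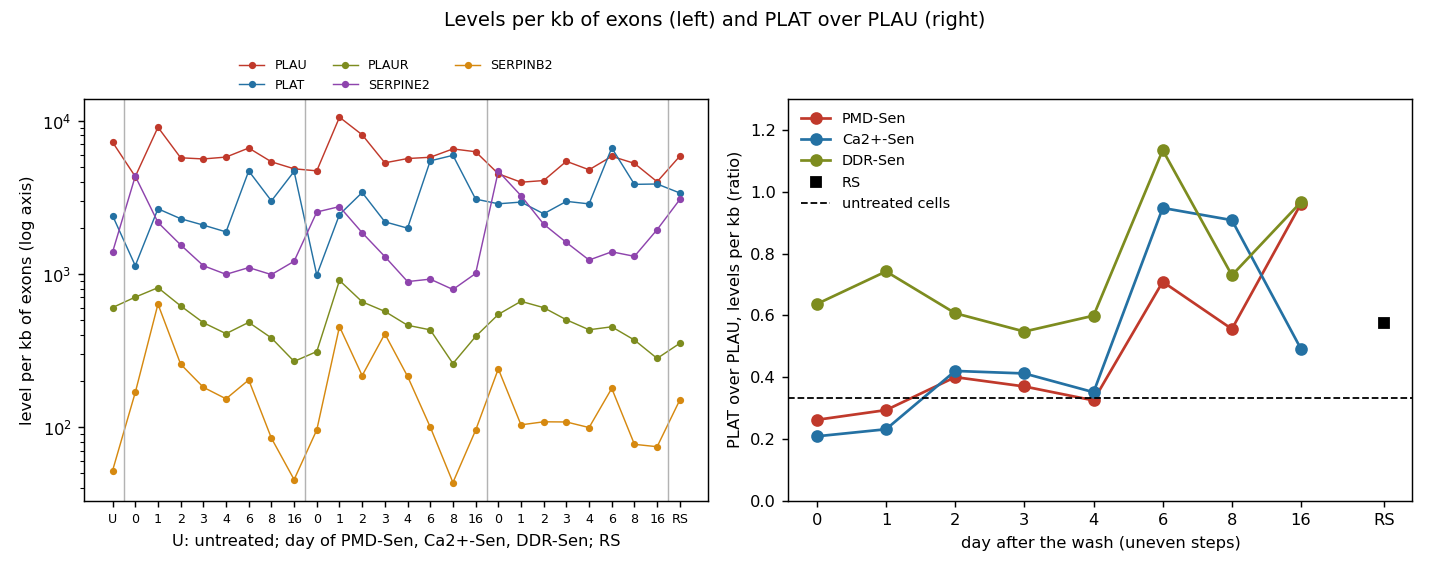
Left, level per kb of exons (log axis) of the 5 members in the 26 groups, in the order untreated, days of PMD-Sen, Ca2+-Sen and DDR-Sen, RS; right, ratio of PLAT to PLAU per kb by day, with the untreated ratio of 0.33 as a dashed line. SERPINB2 is the lowest in all 26 groups, and the ratio exceeds 1 on day 6 of DDR-Sen.

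The other genes of the pathway were taken from lists that do not hold the members. In the list of plasminogen and plasmin control, 3 of 9 genes were tested. Of their 75 gene and table pairs 35 (46.7%) were called higher and 6 (8%) lower, against 8.57% and 9.9% of all pairs. The list's median log2 fold change ran from -0.04 (day 16 of Ca2+-Sen) to 2.02 (RS), while the median of all tested genes stayed between -0.028 and 0.020. With 3 genes the median is the value of 1 gene, here F12 at the lower end and A2M at the upper. SERPINI1 (neuroserpin, an inhibitor of tPA) was called higher in 21 tables from an untreated level of 56.5, up to 2.35 on day 16 of DDR-Sen. A2M, the broad protease trap of plasma, was called higher in 14 tables and lower in 6, and reached 2.59 on day 16 of PMD-Sen and 2.35 on day 8 of Ca2+-Sen. F12, a plasma protease that can activate plasminogen, was called in 0 tables. Its untreated level was 14.9 and its errors were wide (1.32 ± 0.83 on day 0 of PMD-Sen), so a change may have been missed. PLG, the gene of plasminogen, was listed at 0 in 21 of 25 tables. SERPINF2, SERPINA5, CPB2, KLKB1 and HRG had mean levels of at most 5.49 and were not tested.

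In the list of plasminogen binding and clearance, 11 of 12 genes were tested. Of 275 pairs 53 (19.3%) were called higher and 55 (20%) lower, against 8.57% and 9.9% of all pairs. ENO1, a glycolytic enzyme that also serves as a plasminogen receptor, was called lower in 19 tables and higher in 0, and LRPAP1, a chaperone of the clearance receptor LRP1, was called higher in 21 and lower in 0. CLEC3B, the gene of the plasminogen-binding protein tetranectin, was called higher in 4 and lower in 7 tables, from -2.17 on day 1 of PMD-Sen to 1.39 in RS. VLDLR, a clearance receptor, reached 3.03 on day 0 of PMD-Sen. The list's median ran from -0.17 to 0.16.

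In the list of uPAR partners, 9 of 12 genes were tested. Of 225 pairs 30 (13.3%) were called higher and 57 (25.3%) lower, against 8.57% and 9.9% of all pairs. ITGA5 and ITGAV, integrin alpha chains that bind fibronectin and vitronectin, were called lower in 18 and 15 tables. VTN, the gene of vitronectin, a ligand of the receptor, was low (untreated level 30.2) and was called higher in 5 tables, the largest on day 8 of Ca2+-Sen (2.56). ITGB3 reached 1.60 on day 1 of PMD-Sen and CAV1 -2.05 on day 0 of PMD-Sen. The list's median ran from -0.26 to 0.34.

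In the list of other clade B and E serpins, 6 of 13 genes were tested. Of 150 pairs 20 (13.3%) were called higher and 21 (14%) lower, against 8.57% and 9.9% of all pairs. SERPINB7, which like SERPINB2 lies in the clade B cluster of chromosome 18, was called higher in 17 tables and lower in 3, up to 1.44 on day 3 of Ca2+-Sen and down to -1.46 on day 8 of Ca2+-Sen. SERPINB9, an inhibitor of granzyme B, was called lower in 13 tables and higher in 0. The list's median ran from -0.45 to 0.24. In the list of plasmin and uPA substrates, 8 of 13 genes were tested, and of 200 pairs 31 were called higher and 56 lower. MMP1, an interstitial collagenase whose pro-form plasmin can activate, was called higher in 7 tables and peaked, like SERPINB2, on day 1 of PMD-Sen (3.41). MMP3 (stromelysin) reached 2.02 on that day, and -3.22 on day 8 of Ca2+-Sen. HGF, whose pro-form uPA can cut, was called lower in 15 tables and higher in 2. The list's median ran from -0.54 to 0.54.

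The genes whose pattern was most like that of each member were sought by Pearson correlation of log2(level + 1) over the 25 treated groups, among 10950 genes with a mean level of at least 100. For PLAUR they were INSYN2B (0.95), PSMD13 (0.93) and WDFY2 (0.92). For SERPINE2 they were FZD8 (0.91), DGKI (0.90) and AMIGO2 (0.90), and for SERPINB2 NRIP3 (0.89), LPXN (0.89) and SPDL1 (0.87). For PLAT they were SNX29 (0.87), SVIL (0.87) and TBC1D8 (0.85), and for PLAU C18orf54 (0.80), HMGB1 (0.77) and DNA2 (0.76). Among the members the highest correlation was that of PLAUR and SERPINB2, at 0.80, and the next that of PLAU and SERPINB2, at 0.53. The lowest was that of PLAT and SERPINE2, at -0.40. These values describe 25 groups that share libraries, scaling and time courses, and carry no test.

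As PLAUR and SERPINB2 were the members most alike over the groups, the 250 bases before their start sites are given here from RefSeq on GRCh38.p14. Each was searched for the site of AP-1, a factor family that responds to stress and growth signals. Its letters, TGANTCA with N for any base, are the same on both strands, and a match is in capitals. PLAUR (chr19:43670170-43670419, minus strand) holds 1 match, 186 to 180 bases before the start, and SERPINB2 (chr18:63887455-63887704, plus strand) holds 1, 102 to 96 bases before it. Both are written 5′ to 3′.
PLAUR: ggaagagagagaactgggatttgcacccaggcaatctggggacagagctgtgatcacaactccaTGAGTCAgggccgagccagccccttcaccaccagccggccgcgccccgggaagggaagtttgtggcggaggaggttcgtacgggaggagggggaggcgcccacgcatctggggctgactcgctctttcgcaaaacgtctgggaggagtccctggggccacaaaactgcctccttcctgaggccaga
SERPINB2: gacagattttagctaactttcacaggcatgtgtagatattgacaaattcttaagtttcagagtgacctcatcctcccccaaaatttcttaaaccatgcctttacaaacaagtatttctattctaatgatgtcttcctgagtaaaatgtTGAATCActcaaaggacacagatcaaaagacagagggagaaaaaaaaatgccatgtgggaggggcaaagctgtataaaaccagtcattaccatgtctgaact
Such a match was present in 6.57% of the 35116 windows of this length in RefSeq. No match was found in the 2 windows of PLAU or the 2 of SERPINE2. For PLAT no window was available, so it was not searched. The cAMP response element TGACGTCA, also the same on both strands, was in 1.65% of all windows. It was in none of the windows searched of PLAUR, SERPINB2, PLAU and SERPINE2. A match is a string of letters and not a measured binding site. The matches of PLAUR and SERPINB2, TGAGTCA and TGAATCA, differ at the base N. The pair was picked by its correlation in these same data, and whether the matches bear on its levels was not tested.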

How the data were processed

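RNA of WI-38 cells was sequenced by the authors in paired-end reads of an Illumina NovaSeq, 2 samples a group. The submitters' processing notes name Trim Galore, HISAT2, HTSeq, featureCounts and DESeq2 and the build GRCh38 (hg38), without versions or settings. The authors deposited, for each of 25 comparisons with untreated cells, the mean normalized count of a gene (used as a signal that is never negative), the log2 fold change and, also in log2 units, its standard error, the quotient of both as a score, and p-values with and without adjustment. The 2 files of each of 24 conditions were the same, and the RS and the untreated samples shared a single table across 4 files. These columns are the authors' own comparisons; as the files hold no counts per library, they were analysed in place of a count test. Other columns of per-sample values numbered 0.

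Untreated and treated levels were computed from the mean and the log2 fold change and put on the scale of the RS table through 8645 genes whose mean exceeded 200 throughout, matched on their untreated level. Genes with a mean level of at least 10 over the 26 groups were tested (15479). Over all tables, 23 rows that named no gene were dropped. Benjamini-Hochberg adjustment was made table by table. A difference between conditions was divided by the combined standard error of both and given a two-sided normal p-value, adjusted for each contrast over all tested genes. Library sizes were recovered from the most frequent low means, those of genes with 1 read in 1 library. Positions and exon lengths came from GENCODE on GRCh38 and promoters from RefSeq. The computation of levels, adjusted p-values and differences was checked on simulated fold changes drawn with the deposited standard errors, which does not check those errors themselves. Named genes are the members, up to 3 genes of each list most often called past a log2 fold change of 1, genes named in a count, all of the plasminogen and plasmin control list, and the 3 genes most like each member. Some of the listed items are not reported here and were left out of the list counts. The members and lists were chosen with earlier results of these data known. The software was pandas 2.3.3 and NumPy 2.4.6 on Python 3.11.15, with matplotlib 3.10.9 for figures and SciPy 1.17.1 for p-values.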

Additional observations from a re-analysis of the deposited data

Results flagged for a closer look

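The results below differ between inducers on the same day by a test of the difference itself. Values are log2 differences, first inducer minus second, at an adjusted p-value under 0.05.

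For PLAT, PMD-Sen differed from DDR-Sen by -1.34 on day 0, -0.52 on day 3 and -0.61 on day 4. Ca2+-Sen differed from DDR-Sen by -1.55 on day 0, 0.46 on day 2, -0.53 on day 4 and 0.63 on day 8. PMD-Sen differed from Ca2+-Sen by -0.57 on day 2, -0.99 on day 8 and 0.60 on day 16. The sign of the last 2 pairs of inducers thus depended on the day.

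For PLAU, PMD-Sen differed from DDR-Sen by 1.19 on day 1 and 0.49 on day 2, and Ca2+-Sen differed from DDR-Sen by 1.41 on day 1, 0.99 on day 2 and 0.65 on day 16. PMD-Sen differed from Ca2+-Sen by -0.50 on day 2. For PLAUR, PMD-Sen differed from Ca2+-Sen by 1.18 on day 0, and Ca2+-Sen differed from DDR-Sen by -0.81 on day 0, 0.45 on day 1 and -0.51 on day 8.

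For SERPINB2, Ca2+-Sen differed from DDR-Sen by -1.32 on day 0, 2.13 on day 1 and 1.91 on day 3. PMD-Sen differed from DDR-Sen by 2.62 on day 1 and 1.25 on day 2. For SERPINE2, Ca2+-Sen differed from DDR-Sen by -0.95 on day 16.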

How the results depend on the processing

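No paired analysis was possible because the tables hold no value of a single library, and for the same reason leaving out each replicate was not run. Among the counts of called conditions, those with a mean of at least 100, with no filter, by the authors' adjusted p-value and centred on the median all stayed within 1.5 times the reported counts. Scaling by the summed level of all genes, which shifted log2 fold changes by at most 0.062, moved 1 count, that of SERPINB2 between day 16 and RS, from 1 to 0, and centring shifted them by at most 0.077. Levels without rescaling between tables moved no range of a member beyond its error. A log2 fold change of at least 1 reduced the counts against untreated cells to 0 higher and 0 lower for PLAU, 3 and 2 for PLAT, 0 and 3 for PLAUR and 4 and 0 for SERPINE2, since most calls of these genes are smaller. A log2 difference of at least 1 left 2 contrasts between inducers for PLAU, 2 for PLAT, 1 for PLAUR and 0 for SERPINE2, and 4 steps between days for PLAT and 1 for PLAUR. At these cuts the share of all tested genes called was not computed, so the counts cannot be set against it. The error of the treated libraries alone, an alternative chosen after seeing the data, raised the contrasts between inducers to 9 for PLAUR, 4 for SERPINE2 and 14 for SERPINB2, the steps to 6 for PLAU, 1 for SERPINE2 and 13 for SERPINB2, and the contrasts of SERPINB2 with RS to 2. For that error the share of all tested genes called was not computed. Of the 125 values of a member in a condition, testing without a filter lost 5 calls (PLAT on days 0, 1 and 4 of DDR-Sen, SERPINE2 on day 8 of PMD-Sen and SERPINB2 on day 6 of Ca2+-Sen). The sign changed in 3 instances, all of PLAUR on day 2 of PMD-Sen or DDR-Sen, where it was not called. The untreated libraries were the smallest and enter every comparison.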
